A study of Rattus norvegicus with 98 samples.

Results

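The transcripts of the nasal epithelium of rats that breathed 6 ppm formaldehyde for 6 h were compared with those of rats that breathed air for 6 h. Both groups were collected when the 6 h ended. The comparison rests on 8 of the 98 arrays of the series, with 4 exposed animals (283, 284, 286 and 287) and 4 air animals (49, 50, 52 and 53), chosen by their labelled concentration, time and array set. All animals were male F344/NCrl rats aged 8 weeks and were exposed with the whole body in the chamber. Neither group carried a transgene or another agent. Epithelial cells were released with proteases from the lateral meatus and nasoturbinate at Level II of the nose, where transitional epithelium prevails beside respiratory epithelium, and their RNA was read on the Rat230_2 expression array. The wider series also holds 0.7 and 2 ppm, times up to 19 days of repeated exposure, and a second array set with its own air animals and a 15 ppm group.

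Formaldehyde is a small, reactive aldehyde that crosslinks proteins and DNA. It is scrubbed from inspired air mostly in the nose, which is where it causes tumours in rats. Cells detoxify it mainly by joining it to glutathione and oxidising the product through alcohol dehydrogenase 5, encoded by Adh5, and other aldehydes through enzymes such as aldehyde dehydrogenase 2. Electrophiles modify the sensor KEAP1 and so free the transcription factor NRF2, which pairs with small Maf proteins on antioxidant response elements and raises a battery of reducing enzymes.

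Array values are deposited on a log2 scale, so that a difference of 1 is a doubling. A probe set, the array's unit for a transcript, was called where limma's moderated test across the 98 arrays gave a Benjamini-Hochberg adjusted p under 0.05. Of 31042 probe sets, 76 (0.245%) were called between 6 ppm and air, 35 higher (0.113%) and 41 lower (0.132%). Among the called probe sets, 14 were higher by 2-fold or more and 3 were lower by that much. The median change was 0.86 over the 35 rises and -0.53 over the 41 falls, against 0.01 over all probe sets. A gene symbol was given for 20 of the rises and 36 of the falls. Among named genes with groups that did not overlap, the largest rises were those of the heme-degrading enzyme Hmox1, the small Maf factor Maff, the wound receptor Tnfrsf12a and the antioxidant enzyme Srxn1. The falls held the death ligand Tnfsf10, the clock activator Bmal1 and the antigen-presenting gene RT1-Da.

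The size of the called set changed when single animals were left out, which also leaves fewer animals to test. It lay between 15 and 197 when each of the 8 animals was left out in turn: 197 without exposed animal 283, 35 without 284, 38 without 286, 77 without 287, and 15, 19, 21 and 33 without air animals 49, 50, 52 and 53. Only 7 probe sets were called when the 8 arrays were fitted alone. Of these, 4 were among the 76: Hmox1, Tnfrsf12a, Map3k1 and Tor4a. Maff, Dtx4 and Ooep were not called there (limma adjusted p = 0.08, 0.08 and 0.0735). The 8 fits with an animal left out kept the arrays of the other groups for the spread. All 76 kept their sign in all 8 of those fits. The fits reuse the animals from which the 76 were called, so the kept signs give no separate support. Of the 76, 12 kept their call in each fit. Those 12 were Hmox1, Maff, Tnfrsf12a, Dtx4, Ooep, the probe set 1396737_at of Smchd1 and 6 probe sets without a gene name.

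The exposed arrays were less alike than the air arrays, with correlations over all probe sets between 0.978 and 0.993 against 0.993 to 0.995 within air. Exposed animal 286 stood apart: 114 of its probe sets were more than 1 above all of the other 7 animals, against 1 to 24 for each of the others. These included squamous genes and skeletal muscle genes such as Myh4. The called Sprr1b, Tgm3, Il36b and Teddm3 are given below with and without this animal. The 2-fold count and the medians of the rises were taken over the full called set. That set also holds the unnamed 1398090_at and 1398463_at, at 8.22 and 6.25 in 286 and at most 4.96 and 3.79 in the other 7 animals. RNA yield also differed, with an OD260 of 1.371, 1.092, 1.04 and 1.435 in exposed animals 283, 284, 286 and 287 and of 2.692, 2.242, 1.843 and 1.708 in air animals 49, 50, 52 and 53, at the same dilution. The groups did not overlap (exact permutation test, two-sided, p = 0.0286, the smallest p that 4 against 4 allows). The RNA integrity number was 7.7 to 7.8 in the 3 exposed animals with a value and 7.8 to 8.3 in the 4 air animals (exact permutation test, two-sided, p = 0.114). The part of RNA yield and integrity in the results was not tested. In these mixed cells, fewer cells of a type and less RNA per cell cannot be told apart. The tissue was checked on its markers: the basal keratin Krt5 was at 11.24 to 12.75 and the ciliary regulator Foxj1 at 9.20 to 10.07 over the 8 arrays. Transcripts of olfactory neurons were present too, although the olfactory epithelium was discarded at dissection. Their marker Omp lay at 12.10 to 12.82 in exposed and 11.92 to 12.61 in air animals.

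Heme oxygenase 1, encoded by Hmox1, breaks heme down and is a common target of NRF2. Its log2 signal was 9.85, 8.93, 9.19 and 8.94 in exposed animals 283, 284, 286 and 287 and 7.68, 7.52, 7.72 and 7.57 in air animals 49, 50, 52 and 53. Every exposed animal lay above every air animal, and animal 283 was the highest. The difference was 1.60 ± 0.23 (SE of the fit), or 3.04-fold, with a limma adjusted p of 2.26e-05. Of the 8 measured genes of heme and iron handling, Hmox1 was the only one called, and the list's median change was 0.02.

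In the thioredoxin system, Srxn1 and Txnrd1 rose and the other 11 of 13 measured genes were not called. Sulfiredoxin, encoded by Srxn1, repairs overoxidised peroxiredoxins. Its signal was 9.71, 8.81, 9.59 and 8.87 in the exposed and 8.13, 8.10, 8.30 and 8.15 in the air animals, so that the groups were apart and 283 and 286 were the higher pair. The rise was 1.07 ± 0.25, or 2.10-fold (limma adjusted p = 0.0297), and it kept its call in 2 of the 8 fits with an animal left out (0.92 to 1.22, adjusted p 0.018 to 0.11). Thioredoxin reductase 1, encoded by Txnrd1, was at 10.71, 10.27, 10.38 and 10.36 against 9.85, 9.73, 9.94 and 9.78. It rose by 0.60 ± 0.14 (limma adjusted p = 0.0278) in groups that did not overlap, a call kept in 2 of those 8 fits. Against the air animals of the second array set its difference was 0.20 ± 0.13 (limma adjusted p = 0.398). The other probe set of Txnrd1 gave 0.21 ± 0.23, and those of Srxn1 gave 0.65 ± 0.30 and 0.07 ± 0.10, none of them called.

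The start of Srxn1 is shown because the gene is the clearest member of this system and its window holds matches of 3 kinds. The sequence is RefSeq's, in build GRCr8, and runs from 250 bases before to 20 bases after the annotated start. Capitals mark every match, on either strand, to TGANTCA (AP-1), TGAGNNNGC (a variant antioxidant core, added to the search after this window was read) or AGGTCA (bound by ROR and REV-ERB receptors). The AP-1 and antioxidant patterns share bases at the start site.
Srxn1, chr3:161064562-161064831, plus strand: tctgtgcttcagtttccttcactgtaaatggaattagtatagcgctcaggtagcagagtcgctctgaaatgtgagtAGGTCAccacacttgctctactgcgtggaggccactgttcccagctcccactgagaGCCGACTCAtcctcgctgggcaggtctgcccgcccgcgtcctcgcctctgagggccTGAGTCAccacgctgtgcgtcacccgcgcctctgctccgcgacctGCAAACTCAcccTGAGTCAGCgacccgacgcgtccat
AP-1 matches begin at -62 and -5 from the start and antioxidant matches at -118, -17 and -5. The search ran over RefSeq's full windows, to 50 bases after the start. In all 33469 of them, TGANTCA was present in 7.33%, TGAGNNNGC in 17.2% and the form with C, TGACNNNGC, in 12.1%. Among the 18 risen genes with a window they were present in 2, 4 and 1, and among the 33 fallen genes in 5, 7 and 2. Hmox1 and Smchd1 had no window and were not searched. A match here is a description of the letters.

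Cystine import and glutathione synthesis gave no call among 16 measured genes. Slc7a11, the cystine importer, was at 7.96, 6.71, 8.47 and 6.85 in the exposed and 6.42, 6.34, 6.11 and 5.93 in the air animals, again with 283 and 286 highest. Its difference of 1.30 ± 0.34 left the groups apart without reaching the threshold (limma adjusted p = 0.0785). The subunits of the enzyme that makes glutathione's precursor differed by 0.55 ± 0.18 (Gclm, adjusted p = 0.169) and 0.40 ± 0.17 (Gclc, adjusted p = 0.312).

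Among 19 other NRF2 targets and regulators, Sqstm1 alone was called. It encodes p62, a cargo receptor of autophagy that also binds KEAP1, and read 11.95, 11.54, 11.44 and 11.50 against 11.25, 11.15, 11.15 and 11.31. The groups did not overlap, and the rise was 0.39 ± 0.09 (limma adjusted p = 0.0265). Its call was kept in 4 of the 8 fits with an animal left out (0.28 to 0.45). The other probe sets of Sqstm1 gave 0.23 ± 0.12, 0.12 ± 0.12 and 0.27 ± 0.11, none of them called. Nqo1, a quinone reductase that the same pathway controls, differed by 0.24 ± 0.14 (adjusted p = 0.486) and the aldose reductase-like Akr1b8 by 0.63 ± 0.29 (adjusted p = 0.359).

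Maff, a small Maf factor without an activation domain of its own, rose by 1.54 ± 0.25, or 2.91-fold (limma adjusted p = 0.000212). Its signal was 8.23, 7.60, 7.69 and 7.04 in the exposed and 6.14, 5.72, 6.28 and 6.28 in the air animals. All exposed animals lay above all air animals, with 283 highest and 287 lowest. Its relatives were not called: Mafk differed by 0.36 ± 0.13 (adjusted p = 0.211) and Mafg by 0.30 ± 0.12 (adjusted p = 0.258). The window of Maff is shown since, of the 18 risen genes with a window, it alone had a match to TGACGTCA. This is the cyclic AMP response element, which 1.83% of all windows hold. Capitals mark that match, at -51, and the clock's E-box CACGTG, at -213, a motif that 6.42% of windows hold.
Maff, chr7:112792537-112792806, plus strand: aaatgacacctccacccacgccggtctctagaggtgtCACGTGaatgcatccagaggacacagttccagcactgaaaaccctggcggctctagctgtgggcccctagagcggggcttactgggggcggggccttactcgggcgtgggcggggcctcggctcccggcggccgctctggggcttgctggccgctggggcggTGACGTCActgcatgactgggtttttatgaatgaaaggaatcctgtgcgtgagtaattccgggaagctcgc

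Tnfrsf12a, the receptor of the cytokine TWEAK and a gene of wounded epithelium, had the smallest p of the comparison. It read 9.16, 8.69, 8.38 and 8.49 in the exposed and 7.37, 7.15, 7.07 and 7.34 in the air animals. The groups were more than 1 apart at their nearest values, and the rise was 1.45 ± 0.19, or 2.73-fold (limma adjusted p = 2.24e-06). Of the 20 measured EGF receptor ligands, wound and urokinase genes it was the only one called. Plaur, the urokinase receptor, read 7.08, 6.09, 5.85 and 6.00 against 5.39, 5.07, 5.25 and 5.27, a difference of 1.01 ± 0.37 that did not pass (adjusted p = 0.206). The growth factor Areg was at 4.39 to 6.20 in exposed and 4.31 to 6.52 in air animals. No window match to any of the 7 motifs was found for Tnfrsf12a.

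**Figure D1:**
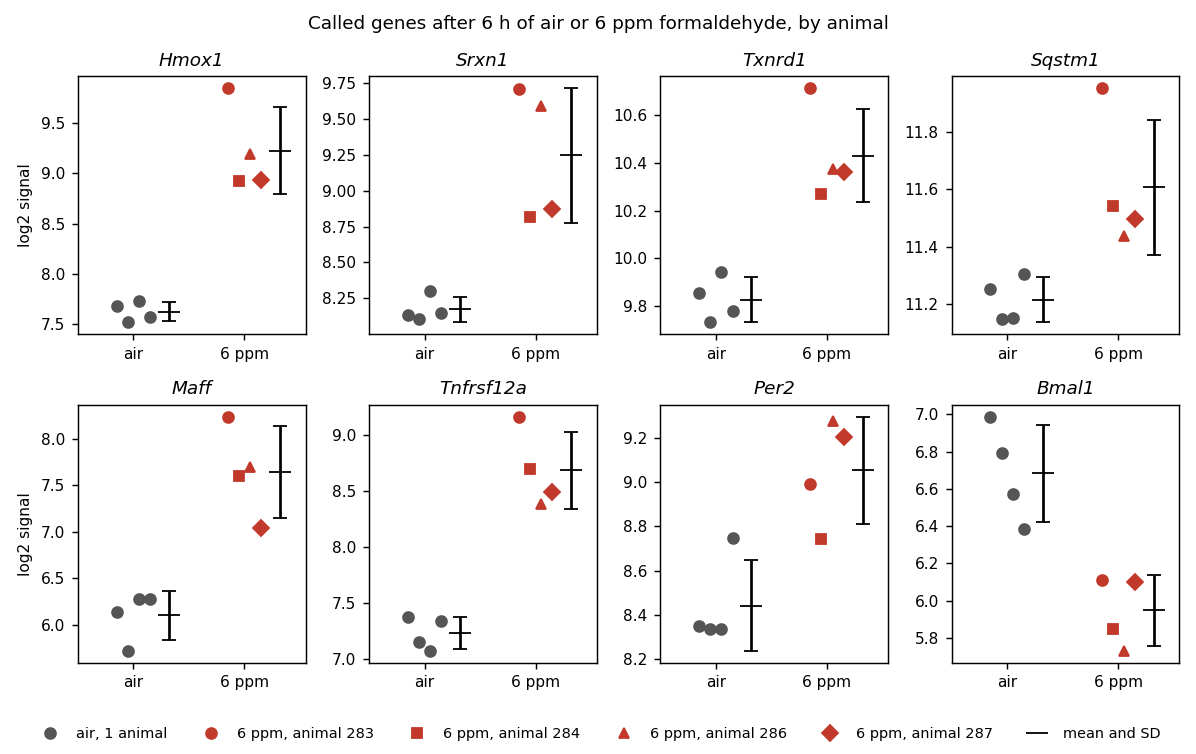
Log2 signal of 8 called genes in each of the 4 air and 4 exposed animals; each symbol is 1 animal, and the bar beside each group is its mean and SD. The groups are apart in every panel but that of Per2, and animal 283 is highest for Hmox1, Srxn1, Txnrd1, Sqstm1, Maff and Tnfrsf12a.

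Of 20 measured clock genes, Per2 rose and Bmal1 fell, and no other was called. PER2 represses the CLOCK and BMAL1 pair that drives its own gene, and BMAL1 is made in antiphase. Per2 read 8.99, 8.74, 9.28 and 9.21 in the exposed and 8.35, 8.34, 8.34 and 8.75 in the air animals. Air animal 53 reached the level of exposed animal 284, and the rise was 0.61 ± 0.13 (limma adjusted p = 0.0265), a call kept in 3 of the 8 fits with an animal left out. The other probe set of Per2 gave 0.13 ± 0.09 and was not called (limma adjusted p = 0.572). Bmal1 read 6.11, 5.85, 5.73 and 6.10 against 6.99, 6.79, 6.57 and 6.38, with every exposed animal below every air animal. It fell by 0.74 ± 0.14 on the log2 scale (limma adjusted p = 0.00329). The repressors Cry1, Cry2 and Bhlhe41 and the kinase Wee1 lay higher in all exposed than in all air animals, by 0.42 ± 0.17, 0.28 ± 0.11, 0.51 ± 0.19 and 0.52 ± 0.14, none called. Such a separation with the exposed higher was seen for 4.30% of all probe sets. The output factor Dbp overlapped, with a difference of 0.14 ± 0.16.

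Against the 4 air animals of the second array set, Per2 did not differ: these read 8.88, 8.86, 9.31 and 9.32, and the change became -0.04 ± 0.13 (limma adjusted p = 0.903). Bmal1 still fell by 0.64 (adjusted p 0.00084). The hour of collection was not given in the labels used here, and array set and day cannot be told apart in that comparison. The windows of Bmal1 and Per2 are shown because these genes moved in opposite directions. Capitals mark AGGTCA in Bmal1, at -15, which 16.2% of all windows hold, and, in Per2, the antioxidant forms TGACNNNGC at -69 and TGAGNNNGC at -82, both on the reverse strand. Neither window holds CACGTG.
Bmal1, chr1:176766078-176766347, plus strand: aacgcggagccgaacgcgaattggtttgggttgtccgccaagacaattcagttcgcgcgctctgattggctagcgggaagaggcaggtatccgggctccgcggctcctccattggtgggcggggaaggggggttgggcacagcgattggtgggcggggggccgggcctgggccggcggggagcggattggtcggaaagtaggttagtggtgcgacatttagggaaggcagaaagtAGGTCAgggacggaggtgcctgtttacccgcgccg
Per2, chr9:99496974-99497243, minus strand: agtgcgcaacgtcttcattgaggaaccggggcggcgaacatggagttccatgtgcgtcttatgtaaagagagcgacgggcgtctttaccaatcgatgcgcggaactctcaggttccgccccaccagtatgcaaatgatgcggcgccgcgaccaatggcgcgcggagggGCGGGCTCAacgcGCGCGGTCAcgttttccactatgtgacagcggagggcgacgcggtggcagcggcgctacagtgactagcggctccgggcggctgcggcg

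Smaller rises came from genes of other roles. Coq10b, which binds coenzyme Q in mitochondria, read 9.88, 9.78, 9.97 and 9.78 against 9.21, 9.18, 9.30 and 9.47 and rose by 0.56 ± 0.14 (limma adjusted p = 0.0434); it kept its call in none of the fits with an animal left out (adjusted p 0.05 to 0.17). A probe set of Slc25a15, the mitochondrial ornithine carrier, rose by 0.75 ± 0.17, and its brighter probe set gave 0.60 ± 0.17 without a call. Cyth1, an exchange factor of ARF GTPases, rose by 0.42 ± 0.10, and the serpin gene Serpina12 by 0.60 ± 0.13. Of the 8 fits with an animal left out, Cyth1 was called in 2 and Serpina12 in 4. Against the second air set Cyth1 gave 0.10 (limma adjusted p = 0.577), and without animal 286 Serpina12 gave 0.44 (limma adjusted p = 0.141). Probe sets of the chromatin genes Atrx and Smchd1 rose by 1.04 ± 0.23 and 0.68 ± 0.13. Both are dim ones: the brightest probe set of Atrx gave -0.31 ± 0.14 and that of Smchd1 0.05 ± 0.18.

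A further 3 probe sets without a gene name, singled out after their values were seen, rose by 1.36 or more. The probe set 1380306_at read 7.59, 8.63, 9.09 and 8.92 in the exposed and 6.81, 7.52, 6.18 and 6.45 in the air animals, a rise of 1.82 ± 0.31. The probe sets 1392613_at and 1397225_at rose by 1.76 ± 0.28 and 1.36 ± 0.23, and in all of these animal 283 was the lowest exposed animal, unlike in the NRF2 targets. Their groups did not overlap.

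The called falls had a smaller median size than the rises. Which direction held more calls depended on the setting: 35 were higher and 41 lower, against 52 and 23 after cyclic loess, 30 and 5 without exposed animal 284, and 13 and 2 without air animal 49. The largest fall was that of Evi2a, a membrane protein gene of blood cells, at 6.64, 5.57, 5.67 and 5.57 in the exposed and 7.53, 7.32, 7.48 and 6.99 in the air animals. Animal 283 was nearest to air, the groups were apart, and the fall was 1.47 on the log2 scale (-1.47 ± 0.34, limma adjusted p = 0.0308). Against the second air set it was -0.87 (adjusted p 0.0852). Ooep, known from the oocyte, read 6.42, 5.76, 6.29 and 6.72 against 7.41, 7.61, 7.81 and 7.58, a change of -1.30 ± 0.23 (limma adjusted p = 0.000602). The air animals of the second array set read 6.39, 6.80, 6.29 and 6.32 for Ooep, within the exposed range, and against them the change was -0.15 (adjusted p 0.74). Tnfsf10, the death ligand TRAIL and an interferon target, read 6.17, 5.23, 5.97 and 5.82 against 7.37, 6.81, 7.12 and 7.08, a change of -1.30 ± 0.29 (limma adjusted p = 0.0278).

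Signalling genes were among the other falls. Dtx4, a ubiquitin ligase of the Notch pathway, read 8.48, 8.00, 8.05 and 7.99 against 9.14, 8.99, 8.78 and 8.99 and changed by -0.85 ± 0.16 (limma adjusted p = 0.00166). The kinase gene Map3k1 read 7.69, 7.75, 7.80 and 7.80 against 8.66, 8.54, 8.58 and 8.51, the tightest groups of the large falls, and changed by -0.81 ± 0.17 (limma adjusted p = 0.0235). Pla2g4a, which frees arachidonic acid from membranes, changed by -0.76 ± 0.19, the glycosyltransferase gene Galnt7 by -0.77 ± 0.19, a probe set of the mitochondrial dehydrogenase Gpd2 by -0.96 ± 0.21 and the torsin gene Tor4a by -0.74 ± 0.17. Groups did not overlap for any of these 4. The brighter probe set of Gpd2 gave -0.12 ± 0.12 (adjusted p = 0.725), and against the second air set the called one gave -0.21 (adjusted p 0.599). Nat1, an N-acetyltransferase of arylamines, changed by -0.68 ± 0.17 and was the only call among 22 conjugating enzymes.

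A further 25 called falls lay between -0.60 and -0.26. By role, and with no test of the grouping, they held vesicle traffic genes (Sec22a at -0.60, Vps45 at -0.34, Stx8 at -0.33, Stx6 at -0.32), genes of mitochondrial upkeep (Coa4 at -0.42, the RNA processing enzyme Prorp at -0.41, Fbxl4 at -0.40, the arginyl-tRNA synthetase Rars2 at -0.36) and the pocket protein gene Rbl2 at -0.36. Also called were Aacs, which activates acetoacetate, at -0.52, the corepressor subunit Tbl1x at -0.53 and Edem2, of the disposal of misfolded glycoproteins, at -0.48. Their limma adjusted p lay between 0.0235 and 0.0465. Of all 76 called probe sets, 50 were called in fewer than 4 of the 8 fits with an animal left out. Against the second air set the fall of Prorp was lost altogether, at a change of 7.2e-06.

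Genes of antigen presentation by MHC class II lay lower in the exposed animals, and 1 of them passed the test. RT1-Da, an alpha chain, read 12.36, 11.78, 11.62 and 12.20 in the exposed and 12.69, 12.61, 12.94 and 12.64 in the air animals and fell by 0.73 on the log2 scale (-0.73 ± 0.17, limma adjusted p = 0.0386). Against the second air set it gave -0.46 (adjusted p 0.0681). RT1-Ba read 11.03, 10.45, 10.11 and 10.89 against 11.37, 11.26, 11.70 and 11.36 (-0.80 ± 0.21, adjusted p = 0.0785). The invariant chain gene Cd74 gave -0.54 ± 0.15 (adjusted p = 0.104), the peptide loader RT1-DMa -0.63 ± 0.16 (adjusted p = 0.0659) and the class II master regulator Ciita -0.76 ± 0.25 (adjusted p = 0.169). In 9 of the 10 measured genes every exposed animal lay below every air animal, against 4.52% of all probe sets, and 1 of 10 was called. The exception was B2m, the light chain of class I, at -0.12 ± 0.07. The list's median was -0.64 with and -0.52 without animal 286, and the same count of 9 was reached without it, where 8.44% of all probe sets separate.

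Genes of the cells that carry class II also lay lower. Of 23 measured macrophage and dendritic cell genes, 21 lay below 0, 5 were apart (4.52% of all probe sets) and 1, Evi2a, was called (0.132% of all), with a median of -0.29. Evi2b read 5.60, 5.82, 5.63 and 5.41 against 6.36, 6.36, 6.54 and 6.44 (-0.81 ± 0.24, adjusted p = 0.113). The list's mean log2 signal was 7.15, 7.11, 6.65 and 6.93 in the exposed and 7.39, 7.29, 7.41 and 7.18 in the air animals, and its part in the class II result was not tested. Lymphocyte genes had a median of -0.28, or -0.14 without animal 286, with none of 19 called. Interferon-stimulated genes had a median of -0.36, 24 of 25 below 0 and 1 called, Tnfsf10. Of the 25, 5 were apart and lower, against 4.52% of all probe sets. Beside Tnfsf10 these were the RNA sensor Rig1, the antiviral Mx1, Ifi44l and the signal transducer Stat2, without a call, at -0.59, -0.90, -0.57 and -0.26.

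**Figure D2:**
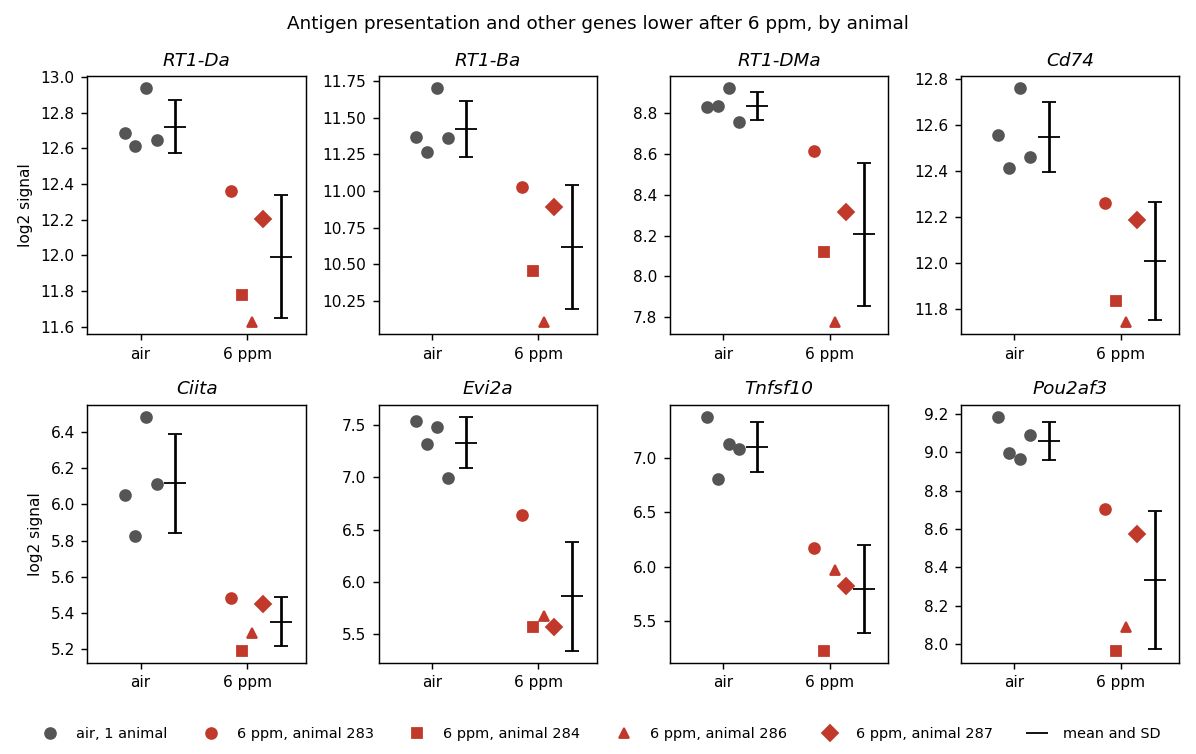
Log2 signal of 8 genes lower after 6 ppm, in each of the 4 air and 4 exposed animals, with mean and SD; RT1-Ba, RT1-DMa, Cd74 and Ciita were not called. In all 8 panels every exposed animal lies below every air animal.

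Pou2af3, a coactivator of the tuft cell factor POU2F3, was the only call among 16 tuft cell and ionocyte genes. It read 8.70, 7.96, 8.09 and 8.57 against 8.97 to 9.18 and changed by -0.73 ± 0.15 (limma adjusted p = 0.00759), with no overlap. The list's median was -0.13. None of the 12 basal, 13 ciliated or 20 secretory genes was called, with medians of -0.01, -0.21 and -0.14. The olfactory list had a median of 0.51, 15 of 16 genes above 0 and none called. Its mean was 10.02, 10.25, 9.77 and 10.43 in the exposed and 9.26, 10.01, 9.84 and 9.61 in the air animals. Of the 16 genes, 1 was apart and higher, against 4.30% of all probe sets. Without animal 286, 7 of 16 were, against 7.51% of all probe sets, and the median was 0.63. Neutrophil genes had a median of 0.19 and none of 10 was called.

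Many stress programs gave no call at 6 ppm, where 0.245% of all probe sets were called. At that share, a list without a call says little about its genes. Of 18 heat shock chaperones none was called and the median was -0.02; Hspa1a, the inducible HSP70, differed by -0.29 ± 0.19 (adjusted p = 0.532). The p53 targets gave none of 17, with Cdkn1a at 0.05 ± 0.20 and Gadd45a at -0.06 ± 0.14. The 23 genes of DNA-protein crosslink and crosslink repair and the 25 of formaldehyde and aldehyde metabolism gave none. Adh5, the main formaldehyde-oxidising enzyme, read 11.28, 11.25, 11.10 and 11.35 against 11.07, 11.30, 11.20 and 11.25, a difference of 0.04 ± 0.14. Aldh2 differed by -0.24 ± 0.15 (adjusted p = 0.532). Chemokines and cytokines gave none of 31, with the neutrophil attractant Cxcl1 at 7.12 to 8.59 in exposed and 6.70 to 8.45 in air animals. The 27 AP-1, Egr and Klf factors gave none, Fosl1 differing by 0.66 ± 0.25 (adjusted p = 0.229). Over all probe sets 3915 (12.6%) had an unadjusted p under 0.05.

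Some lists leaned one way without calls. Glucocorticoid-responsive genes had a median of 0.21 and 0 of 16 called, with the metallothionein Mt2A at 0.62 ± 0.16 (adjusted p = 0.068), Sgk1 at 0.59 ± 0.21 and Tsc22d3 at 0.58 ± 0.20. Cholesterol synthesis and uptake had a median of -0.23, 16 of 17 genes below 0, 5 apart (4.52% of all probe sets were apart and lower) and 0 called. Without animal 286, 9 of 17 were apart, against 8.44% of all. Its enzyme Lss read 7.37, 7.45, 7.59 and 7.50 against 7.96, 7.78, 7.76 and 7.75 (-0.33 ± 0.10, adjusted p = 0.103). Ribosome biogenesis had a median of 0.10, or 0.02 without animal 286, and 0 of 27 called, led by the nucleolar Gnl3 at 0.52 ± 0.14 (adjusted p = 0.0785). Cell cycle genes had a median of -0.17, 27 of 31 below 0, 3 apart and lower (4.52% of all probe sets) and 0 called. Without animal 286, 12 of 31 were apart and lower, against 8.44% of all. The proliferation marker Mki67 differed by -0.47 ± 0.24.

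Called rises of squamous genes were largest in 1 animal. Sprr1b, a precursor of the cornified envelope, read 6.20, 5.12, 11.14 and 8.88 in the exposed and 5.44, 5.58, 5.30 and 4.98 in the air animals. Tgm3, a crosslinking transglutaminase, read 6.83, 6.77, 12.06 and 8.32 against 6.54, 6.50, 7.09 and 6.76. Both were called at 2.51 ± 0.56 and 1.77 ± 0.42 (limma adjusted p = 0.0275 and 0.0344), with groups that overlapped. These SEs use the spread of all groups, while the SD of the exposed animals was 2.71 and 2.48. With the 8 arrays fitted alone neither was called (limma adjusted p = 0.32 and 0.42). Animal 286 was far above the rest and 287 next, and without 286 the values were 1.41 (adjusted p 0.22) and 0.58 (adjusted p 0.38). The epidermal cytokine gene Il36b (0.95 to 0.25) and Teddm3 (0.84 to 0.26) lost their calls without it in the same way. Leaving out other animals, air animals among them, also cost these calls. Of the 8 fits with an animal left out, Sprr1b was called in 2 and Tgm3, Il36b and Teddm3 in 3 each.

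Most of the squamous list went the other way in the other 3 exposed animals. Sprr3 read 8.46, 4.74, 11.45 and 5.75 against 9.42, 10.34, 12.01 and 10.88, and Cnfn, cornifelin, 9.23, 7.04, 10.76 and 7.14 against 9.78, 10.48, 11.68 and 10.45. Without animal 286, 11 of the 20 measured genes lay below every air animal, against 8.44% of all probe sets, and the median went from -0.25 to -0.98; with it, 0 of 20 did. The mean of the list was 9.01, 8.30, 11.38 and 9.01 in the exposed and 9.33, 9.74, 10.51 and 9.63 in the air animals. Muscle genes were also raised in 286: Myh4, a fast myosin, read 3.46, 3.22, 6.80 and 3.55 against 3.54, 3.62, 3.61 and 3.36. The mean of the 15 muscle genes was 8.16 in 286, 5.50 to 6.57 in the other exposed and 6.06 to 7.05 in the air animals. Their part in the squamous values was not tested.

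**Figure D3:**
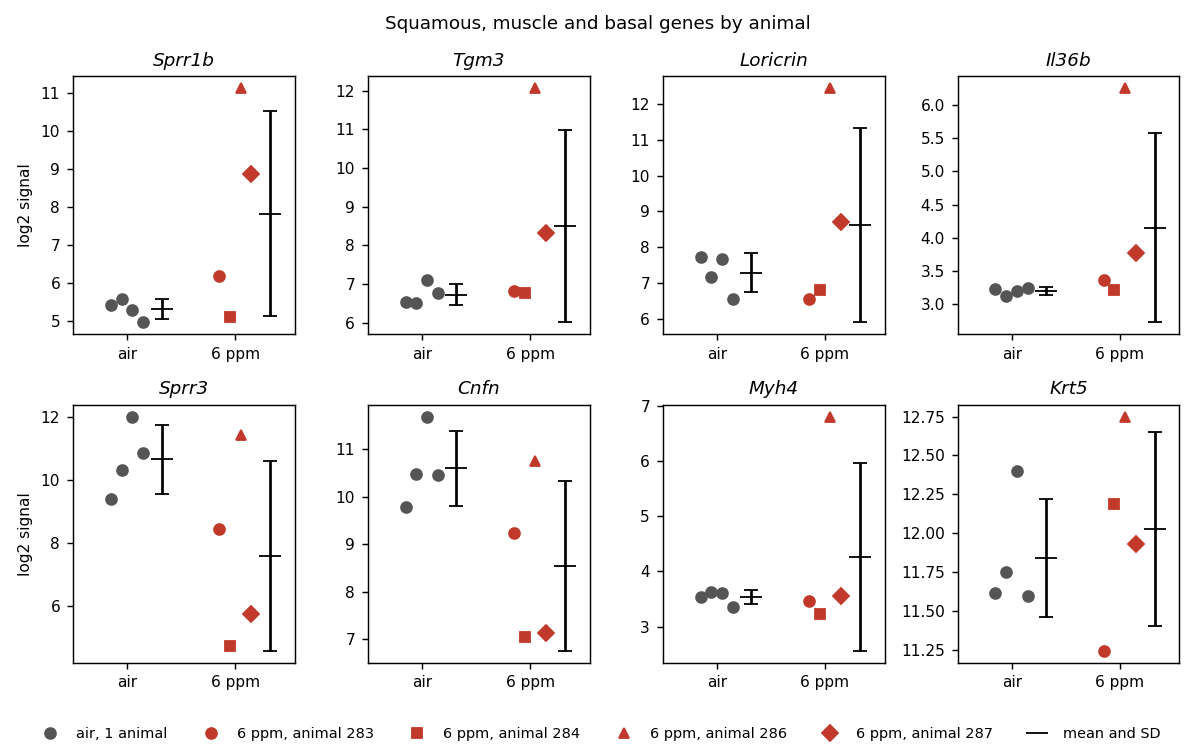
Log2 signal of squamous genes, the muscle gene Myh4 and the basal keratin Krt5 in each of the 8 animals, with mean and SD. Exposed animal 286 (triangle) is the highest exposed animal in every panel, while 283, 284 and 287 lie below all air animals for Sprr3 and Cnfn.

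Lower concentrations were read at the same time of 6 h in 4 animals each; all 3 concentrations share the same air animals. At 0.7 ppm no probe set was called by limma against air (0%; 409, or 1.32%, at an unadjusted p under 0.05), and at 2 ppm 1 was (0.00322%; 1742, or 5.61%, at an unadjusted p under 0.05), the unnamed 1375396_at, higher by 0.63 against 0.66 at 6 ppm. The 35 rises had a median of 0.22 at 2 ppm and 0.13 at 0.7 ppm, the 41 falls of -0.33 and -0.06. Hmox1 read 8.23, 8.12, 8.38 and 7.10 at 2 ppm and 7.67 to 8.21 at 0.7 ppm. Tnfrsf12a read 7.13 to 7.63 at 2 ppm and 7.07 to 7.71 at 0.7 ppm. For both the 6 ppm animals were above all others.

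Directly compared, 6 and 2 ppm differed in these 2 probe sets alone (0.00644% of all; 4.18% had an unadjusted p under 0.05). Hmox1 was higher at 6 ppm by 1.27 ± 0.23 (limma adjusted p = 0.00959) and Tnfrsf12a by 1.31 ± 0.19 (limma adjusted p = 4.97e-05). The differences of other rises had wide intervals: 0.85 for Srxn1 (95% interval 0.36 to 1.34) and 0.77 for Maff (0.28 to 1.27), neither called. For Per2 the difference was 0.01 (-0.26 to 0.27) and for Coq10b 0.06 (-0.22 to 0.33). Between 6 and 0.7 ppm 113 probe sets (0.364%) were called, 23 higher (0.0741%) and 90 lower (0.29%) at 6 ppm. Without exposed animal 283 this count was 502, and without 0.7 ppm animals 127 or 129 it was 15 or 20.

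At 15 ppm, in the second array set and against its own 4 air animals, 2636 probe sets (8.49%) were called and 20.2% had an unadjusted p under 0.05. Among them were 15 of the 35 rises (4.32% of all probe sets were called higher) and 18 of the 41 falls (4.17% lower), and none in the opposite direction. Tnfrsf12a reached 10.53 to 10.90 and Hmox1 10.76 to 11.46. The 15 ppm effect exceeded the 6 ppm effect by 2.10 ± 0.27 for Tnfrsf12a (limma adjusted p = 1.25e-07), 1.76 ± 0.33 for Hmox1 (0.000507), 1.64 ± 0.35 for Srxn1 (0.00295) and 1.44 ± 0.35 for Maff (0.0156). Txnrd1 and Sqstm1 differed by 0.21 ± 0.19 and 0.20 ± 0.12, not called. Genes outside the 6 ppm calls were added, among them Areg with a 15 ppm effect of 4.85 and Cxcl1 with 3.31, and their effects differed from those at 6 ppm by 4.98 and 2.98, both called. Per2 went the other way, at -0.31 against 0.61 at 6 ppm (difference -0.92 ± 0.19, limma adjusted p = 0.00211). The MHC class II list, at a median of -0.64 at 6 ppm, was at -0.07. Concentration and array set change together here and cannot be told apart; the air animals of the sets themselves differed in 1460 probe sets (4.70%).

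**Figure D4:**
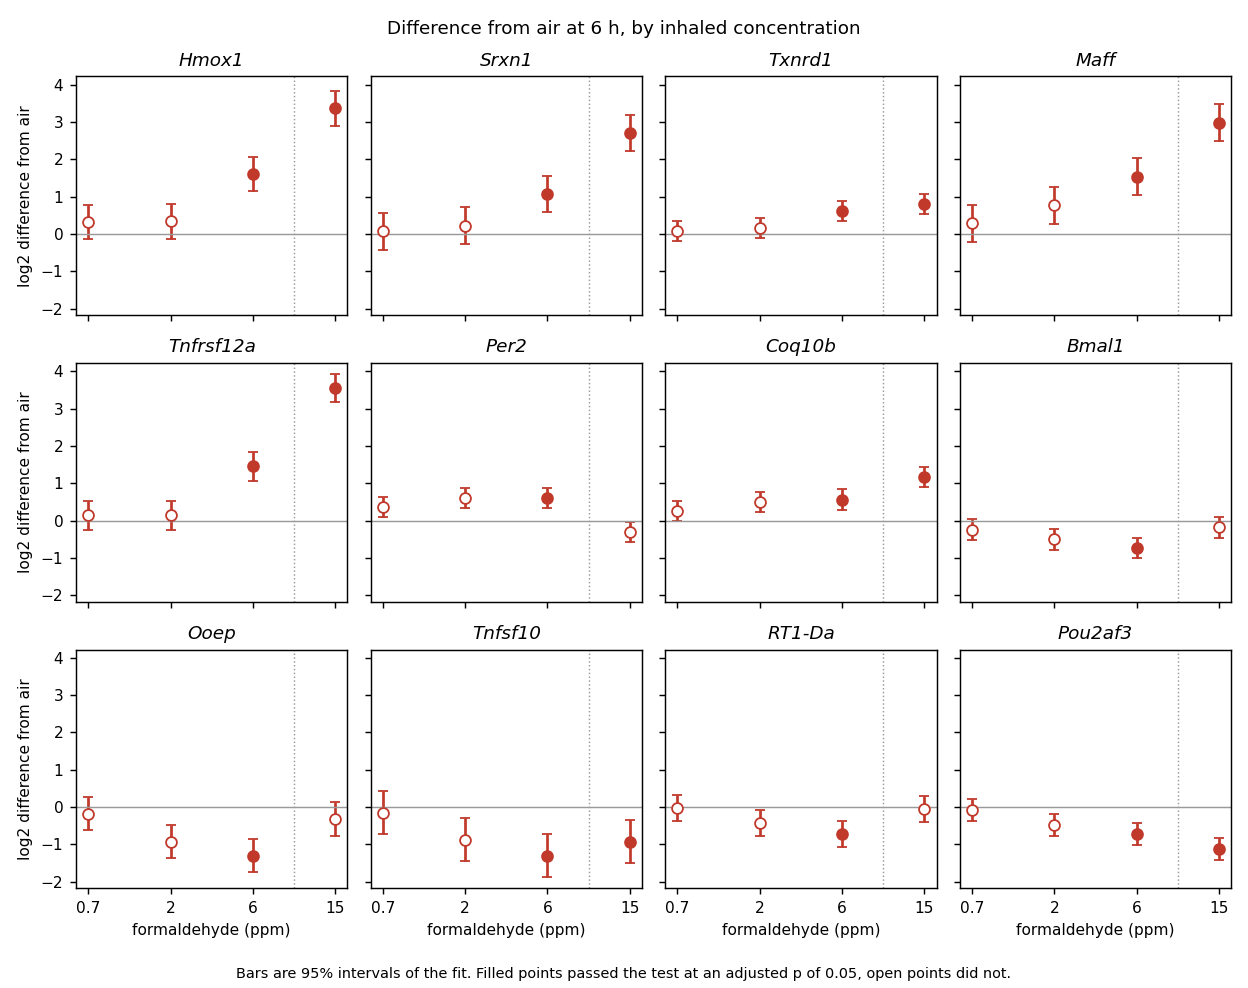
Log2 difference from air at 6 h for 12 genes at 0.7, 2, 6 and 15 ppm (evenly spaced categories), with 95% intervals; filled points were called. The dotted line sets off 15 ppm, measured in the second array set against its own air; Hmox1, Srxn1, Maff and Tnfrsf12a are highest there, while Per2 lies below 0.

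The same concentration was followed to later times in other animals, each against air of its own time. At 24 h, none of the 35 rises or 41 falls was called and their medians were 0.04 and -0.16; 1 probe set in all was called there (0.00322%). Hmox1 read 8.09, 8.55, 8.45 and 8.09 at 24 h against 7.98, 8.16, 8.58 and 7.90 in air, and Maff 6.58, 6.80, 6.78 and 6.59 against 6.49, 6.35, 6.81 and 6.18. Groups overlapped in both, and air itself differed between 24 h and 6 h in 1057 probe sets (3.41%). The direct test of the 6 h effect against the 24 h effect nevertheless called 0 probe sets by limma (1628, or 5.24%, at an unadjusted p under 0.05), with a difference of 1.47 ± 0.33 for Hmox1 (limma adjusted p = 0.314) and 1.13 ± 0.27 for Tnfrsf12a (limma adjusted p = 0.395). A change between 6 and 24 h was therefore not shown for any probe set.

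With repeated exposure the rises recurred in part. Of all probe sets, 0.119% were called at 5 days (7.24% at an unadjusted p under 0.05), 0.029% at 8 days and 0.412% at 19 days. At 5 days 9 of the 35 rises were called again (0.0902% of all probe sets called higher): Hmox1, Srxn1, Per2, Coq10b, the called probe sets of Atrx and Slc25a15 and the unnamed 1380306_at, 1392613_at and 1397225_at. At 8 days 7 were (0.029%), and at 19 days 7 (0.0902%), with Hmox1, Srxn1, Maff and Tnfrsf12a at both times. Srxn1 gave 1.48 at 5, 1.57 at 8 and 2.08 at 19 days, against 1.07 at 6 h. The unnamed 1392613_at gave 2.92 at 5 days, then 0.27 and 0.09. Of the 41 falls, 4 were called at 5 days (0.029% lower), 0 at 8 days (0%) and 8 at 19 days (0.322%); Ooep, Bmal1 and Stx8 were called at both 5 and 19 days, Ooep at -1.14 and -1.22. RT1-Da was at -0.41, 0.12 and -0.45 over these times, never called. No probe set's 6 h effect differed by limma from that at 5, 8 or 19 days (0 called at each; 1037, 2654 and 1029, or 3.34%, 8.55% and 3.31%, at an unadjusted p under 0.05).

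**Figure D5:**
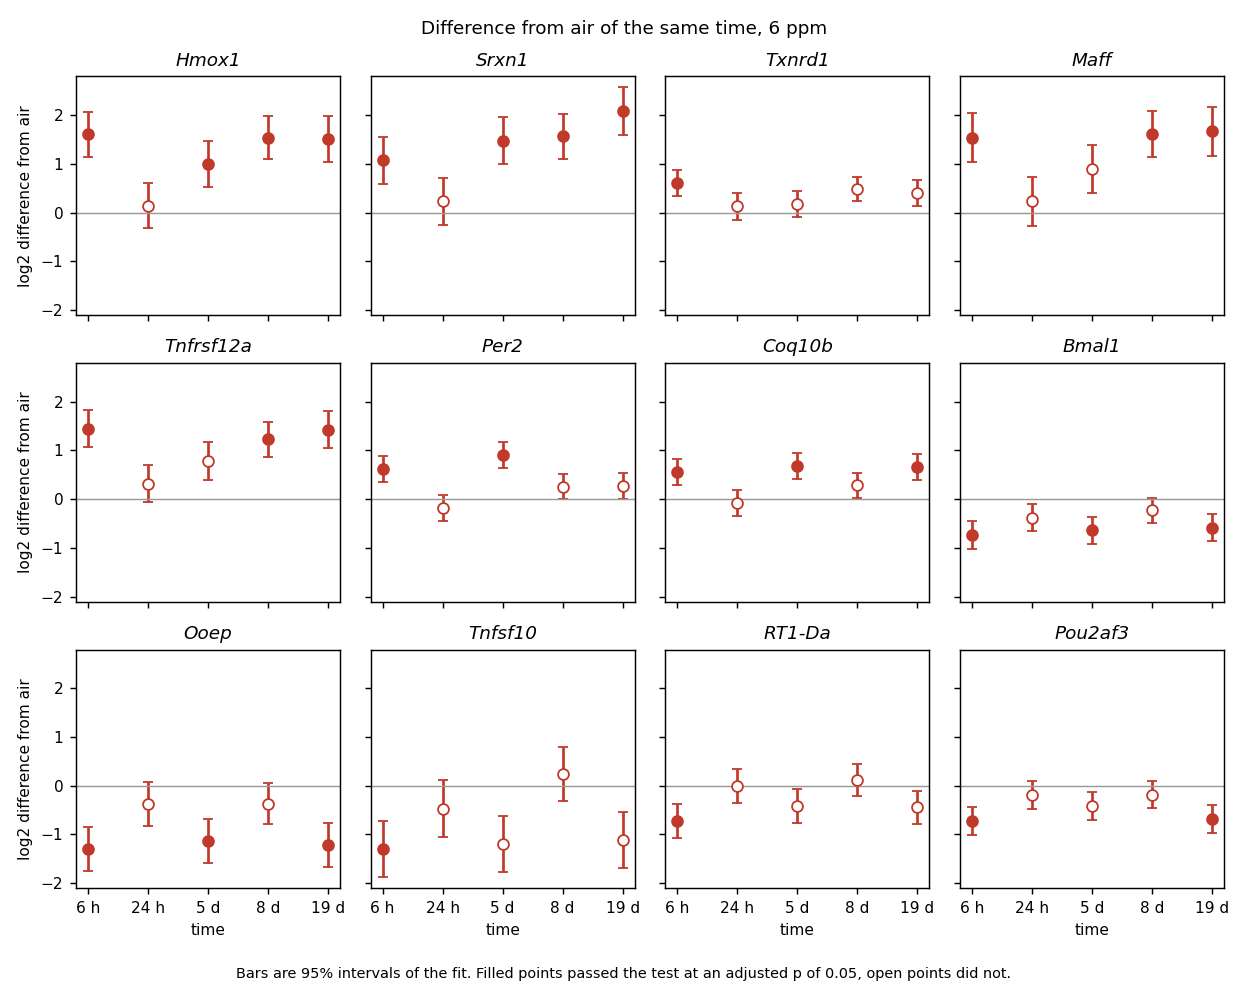
Log2 difference of 6 ppm from air of the same time for 12 genes at 6 h, 24 h, 5, 8 and 19 days, with 95% intervals; filled points were called. All 12 points at 24 h are open, and Hmox1 and Srxn1 are filled at every other time.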

How the data were processed

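Array values of 98 samples were used as deposited by the authors: log2 expression values per probe set, whose background correction, summary and normalization are not given in the sources used here. Labelling followed the array maker's protocol, per the labels' protocols. Their medians lay between 5.93 and 6.07, and 57 control probe sets of 31099 were left out. Arrays hold no counts, so their number limits the precision; each animal is 1 array.

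A linear model with a mean for each of 24 groups was fitted to all 98 arrays with limma 3.58.1 in R 4.3.3 (74 residual degrees of freedom, plus 3.39 from the prior). No covariate was entered, and the RNA yield and integrity that the labels give were not adjusted for. P-values were adjusted over 31042 probe sets by Benjamini-Hochberg, and SEs and intervals are the fit's. Data were also simulated with independent normal noise of the same spread in every group. There the test found 92% of 2-fold and 72% of 1.5-fold changes in the 6 ppm against air comparison, and 5.20% of its calls were false. The real exposed arrays were less alike than the air arrays, so these rates need not hold for the real data. A gene stands for its brightest probe set over all arrays. The platform table names 1 gene for 20826 probe sets, several for 436 and none for 9780. The genes described are the 15 largest rises and falls with groups apart (12 rises qualified), all called list members, up to 4 members of each of 41 lists with the smallest p, called probe sets of genes whose brightest is another, and a fixed set of stress and marker genes. The members and lists were chosen with earlier results of these data known. Promoter windows are RefSeq's (GRCr8), and motifs were searched on both strands. Group comparisons of RNA yield used SciPy 1.17.1. The labels give each array an animal number, so p-values measure the spread between animals. Alternatives were the 8 arrays alone, dim probe sets left out (mean under 6), cyclic loess, a robust prior with trend, the second set's air, other probe sets and each animal left out.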

Additional observations from a re-analysis of the deposited data

Results flagged for a closer look

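Within groups of 4, Dixon's gap test at 95% singled out 7 of 142 groups of values (4.93%). All but that of Per2 were in exposed animals. The same animals recur across genes, many of which were chosen for their calls. The test's rate of 1 in 20 therefore does not give the number expected here. Animal 286 was far from the other exposed animals for Teddm3 (6.14) and Edem2 (7.08), animal 284 for Fbxl4 (7.20) and Tor4a (5.32), and animal 283 for Dtx4 (8.48) and Evi2a (6.64). Air animal 53 was far from the other air animals for Per2 (8.75).

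Effects at 15 ppm and 6 ppm, each against the air of its own array set, differed by limma's test of the difference for 14 of the genes described. The 15 ppm effect was higher by 1.76 for Hmox1, 1.44 for Maff, 2.10 for Tnfrsf12a, 1.64 for Srxn1 and 0.74 for Fv1. Among genes not called at 6 ppm it was higher by 4.98 for Areg, 2.98 for Cxcl1, 1.70 for Gadd45a, 1.12 for Hspa1a and 1.11 for Cdkn1a. It was higher by 0.46 for Prorp, which fell at 6 ppm. The difference was -0.92 for Per2, -0.86 for Dbp and -0.57 for the probe set 1393720_at of Zfp644. Concentration and array set cannot be told apart in these differences.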

How the results depend on the processing

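No paired analysis was possible because the numbers in the labels are animal numbers, and no number occurs in 2 groups. The count for 6 ppm against air, 76, was 7 with the 8 arrays alone (4 shared with the 76), 3570 against the air of the second array set (57 shared) and 15 to 197 with each animal left out. Of its calls 46.1% were higher, against 69.3% of 75 after cyclic loess, 32.1% of 78 with dim probe sets left out and 34.0% to 86.7% with each animal left out. The count for 6 against 2 ppm, 2, was 0 with the compared arrays alone and 1 to 12 with each animal left out. For 6 against 0.7 ppm, 113 calls became 295 with dim probe sets left out and 15 to 502 with each animal left out; the share higher was 20.4%, against 45.9% with the arrays alone, 8.81% with dim probe sets left out and 38.8% after cyclic loess. The test of 6 h against 24 h gave 0 in each alternative run. Against the second air set the sign turned for the called Per2 (-0.039) and Prorp (7.2e-06), for Hspa1a, which was then called (0.98, limma adjusted p = 0.000146), and, with no call in either fit, for Gclc (-0.07), Dbp (-0.15), Gadd45a (0.31) and Areg (1.12). Other probe sets of the same gene turned it for Homer1 (0.014), Tbl1x (0.11), Zfp644 (-0.097), Atrx (-0.31 and -0.31) and Cyth1 (-0.079). The cause was not tested. Of the 76 probe sets, 12 were called in all 8 fits with an animal left out and 50 in fewer than 4. Without animal 286, an alternative for group overlap chosen after seeing the data, 28 of the 76 were called.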
